A study of Mus musculus with 13 samples.

Results

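Nfil3 and a set of genes that carry the output of the circadian clock were followed in 13 mouse lung RNA libraries. The 10 genes were taken by their symbols from the deposited tables of 20270 genes: Nfil3, Dbp, Tef, Hlf, Per1, Per2, Per3, Nr1d1, Nr1d2 and Ciart. Every one was counted well enough to be among the 15315 genes tested. The samples came from 4 Control mice, 5 wildtype (WT) mice given bleomycin and 4 CB1R KO mice given bleomycin, each named by the number in its label. The labels of WT bleomycin 4 and 4-B2 share the number 4 and what B2 stands for is not given, so their coming from different mice is assumed. Their counts differed with a chi-square per gene of 15.96, the highest of the WT bleomycin pairs. The lowest was 8.14, for WT bleomycin 4 and 2, and 4-B2 with 7 gave 9.73. A second library of the same mouse could differ as well, so these values cannot decide it. Both were kept as separate samples. Control animals (3, 21, 24 and 26) were wildtype, and the methods of the study give sterile saline as the vehicle. WT bleomycin animals (4, 2, 5, 4-B2 and 7) and CB1R KO bleomycin animals (8, 9, 10 and 11) had received a single oropharyngeal dose of 1 U per kg, 14 days before collection. The CB1R KO carries a deletion of Cnr1, the gene of cannabinoid receptor 1, in the whole animal on a C57BL/6J background, and no CB1R KO mice without bleomycin were analysed here. Purchased C57BL/6J mice were males of 13 weeks, whereas neither the age nor the sex of the CB1R KO mice was given in the sources used here. All mice lived under 12 h of light and 12 h of dark, had lung function measured under anesthesia at the end, and gave the lower right lobe for RNA. The hour at which each lung was collected was not given in the sources used here.

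The circadian clock is a transcriptional loop that runs in nearly every cell, lung included. The proteins BMAL1 (gene Arntl) and CLOCK bind E-box elements and switch on the Period and Cryptochrome genes, whose products then silence BMAL1 and CLOCK. A second arm uses the nuclear receptors REV-ERB alpha and beta (genes Nr1d1 and Nr1d2), which repress Arntl, Npas2 and Nfil3. The output arm consists of the PAR bZIP activators DBP, TEF and HLF, which bind D-box elements, and of NFIL3 (also E4BP4), a bZIP repressor that binds the same elements. In a healthy animal Dbp and Arntl peak at opposite times of day, so levels of these genes depend on the hour of sampling. NFIL3 is also known as an immune factor, required for natural killer cells and induced by cytokines.

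Before the results, 3 features of the libraries need to be stated. Of the 13, 12 held 14615904 to 16662580 estimated counts, while CB1R KO replicate 11 held 53463884, or 3.33 times the median of the rest. Control replicate 3 stood apart from the other controls in most of the clock genes, so log2 fold changes against Control are given for all 13 libraries first and then, where named, without it. Control replicate 26 and WT bleomycin replicates 4-B2 and 7 carry capital letters in their labels, and what this style of writing stands for is not given. Cnr1 itself ranged from 1.62 to 4.10 counts scaled to library size (CPM) in Control, from 3.46 to 6.97 CPM in WT bleomycin and from 2.47 to 5.62 CPM in CB1R KO bleomycin. The ranges overlap, and counts summed over the gene do not check a deletion of only part of it. For the labelled tissue, type II, type I, club and endothelial markers were looked up: none of these 25 markers was at 0 throughout a group. The same held for every other marker list, cardiac and striated muscle and adipocytes included, so this alone does not single out lung.

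Promoter sequences from RefSeq (GRCm38.p6, a build other than the authors' GRCm39) were matched by symbol for 9 of the 10 genes, Per2 being the one not matched. In the 250 bases before each annotated start, both strands were searched for the E-box CACGTG, the D-box TTATGTAA or TTACGTAA, and AGGTCA, the half-site read by REV-ERB and its activating counterparts. The promoters below are shown because they held an E-box, the element bound by BMAL1 and CLOCK, or a D-box, the element for which DBP and NFIL3 compete. Capitals mark the E-box in Ciart, Per1 and Tef and the D-box in Per3.
Ciart, chr3:95882242-95882369, minus strand: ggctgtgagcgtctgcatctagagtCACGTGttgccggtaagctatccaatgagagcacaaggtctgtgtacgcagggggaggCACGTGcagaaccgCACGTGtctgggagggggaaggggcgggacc
Tef, chr15:81811251-81811306, plus strand: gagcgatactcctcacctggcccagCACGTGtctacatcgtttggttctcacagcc
Per1, chr11:69098758-69098813, plus strand: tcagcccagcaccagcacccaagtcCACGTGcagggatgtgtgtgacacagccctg
Per3, chr4:151044791-151044895, minus strand: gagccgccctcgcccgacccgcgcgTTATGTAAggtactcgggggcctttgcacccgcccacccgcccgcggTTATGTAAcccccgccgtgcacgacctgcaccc
The E-box was found in 3 of the 9 matched genes, Tef, Per1 and Ciart, against 6.02% of 32851 promoters of the same length. Matched genes are counted here by any of their starts (11 promoters in all), whereas the shares of all promoters are by promoter. Tef held it before both of its annotated starts, the second of which is printed. Ciart held 3 of them, at 116, 58 and 44 bases before its start, and 0.0609% of all promoters held as many. Only Per3 among the matched genes held the D-box, at 205 and 158 bases before its start, while 0.931% of promoters held at least 1 copy and 0.0213% held 2 or more. AGGTCA lay 12 bases before the start of Nfil3, 77 before that of Nr1d2 and 137 before that of Per1, and 14% of all promoters held it. These matches are letters in a window and were not measured as binding.

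Levels can be compared between genes only per transcript length, in TPM. On that scale the median over the 4 Control lungs ran from 189.6 for Tef and 185 for Dbp, through 133 for Per1, 132 for Nr1d1, 79.2 for Nr1d2, 67.0 for Ciart, 51.1 for Per2 and 40.2 for Per3, down to 22.1 for Hlf and 6.36 for Nfil3. The repressor Nfil3 was thus the least abundant of the 10 in Control lungs, with 4.07 to 9.05 TPM. Values that follow are CPM after TMM scaling, for comparison of a gene between libraries, except where TPM is named.

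Control replicate 3 carried a clock profile unlike that of the other 3 controls. It was the lowest control for 8 of the 10 genes, all but Nfil3 and Nr1d1, where 29.9% of all genes tested had it lowest. For 7 of the 10 (Tef, Hlf, Per1, Per2, Per3, Nr1d2 and Ciart) its distance to the nearest control exceeded the critical value of Dixon's outlier rule, compared with 2.43% of all genes tested. The difference was greatest in Per2, 9.85-fold below the mean of the others, followed by Per3 (4.84-fold), Dbp (3.91-fold) and Hlf (3.79-fold). In the opposite direction, Arntl and Npas2, which encode BMAL1 and a substitute for CLOCK, were at 6.11 and 8.39 times the mean of the other controls. Within these 10 genes it lay inside the range of the WT bleomycin libraries for 7, below it for Nfil3 and Per2, and above it for Nr1d1. Over all genes a wider count was made, of values within the WT bleomycin range or beyond it in the direction of the change. It came to 14% of the 7096 genes called between WT bleomycin and control lungs without this library. This is not the same measure as the 7 genes inside the range. The neutrophil markers of control 3 summed to 588 CPM, the highest of the Control libraries, where the lowest was 127, and its B and plasma cell markers summed to 367.5 CPM against a lowest of 168. It was also the highest control for T cell (61.2 CPM), natural killer cell (80.3 CPM) and endothelial (4744 CPM) markers. For club (20831 CPM), type II (18635 CPM) and type I (3458 CPM) markers it was the lowest control. The part of these markers in the clock profile was not tested, and the hour of collection, which is not given, cannot be told apart from the animal.

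**Figure D1:**
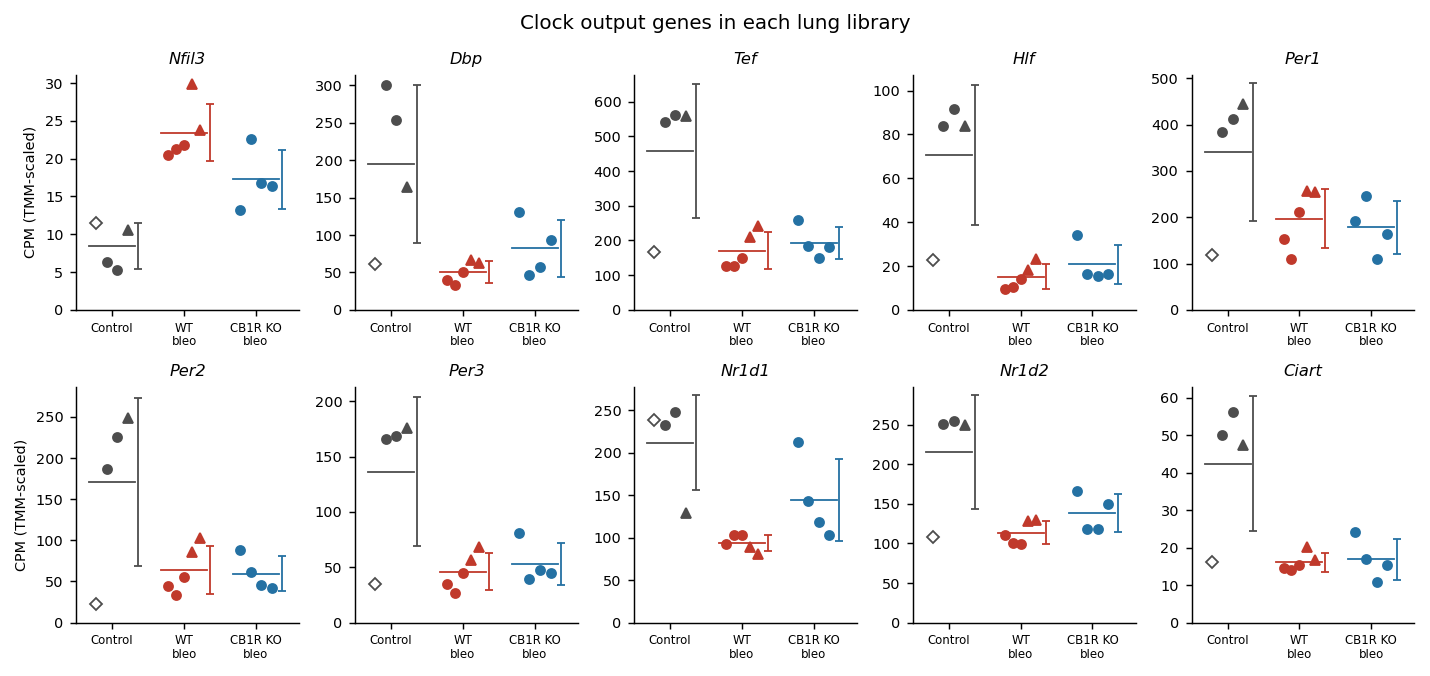
Each panel plots the CPM (TMM-scaled, linear axis from 0) of 1 gene in the 13 lung libraries, by group, with the group mean as a horizontal line and the SD as the bar beside it. The open diamond is control replicate 3 and triangles are libraries with capital letters in their labels. In 8 panels, all but Nfil3 and Nr1d1, the filled controls lie above every bleomycin library and the diamond lies among or below them. Over all genes tested, 15.3% had controls 21, 24 and 26 all above every bleomycin library.

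In WT bleomycin lungs the D-box activators were lower and the D-box repressor Nfil3 was higher than in control lungs. Of the 10 genes, 9 were called at an adjusted p under 0.05 by edgeR's quasi-likelihood test, 1 higher and 8 lower, where 48.9% of all genes tested were called, 25% higher and 23.9% lower. Because nearly as many genes were called as not, the count alone does not set the clock genes apart. Their median log2 fold change was -1.40, against -0.01 over all genes tested. Without control replicate 3 all 10 were called (46.2% of all genes) and the median became -1.68. With WT bleomycin 4 or 4-B2, which share a number, left out instead, 8 and 9 were called. In whole lung, fewer cells of a type and less RNA per cell cannot be told apart.

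Dbp, the PAR bZIP activator with the widest daily swing in many tissues, was at 61.2, 301, 254 and 164 CPM in controls 3, 21, 24 and 26. WT bleomycin replicates 4, 2, 5, 4-B2 and 7 had 40.1, 33.5, 50.1, 67.1 and 62.4 CPM. Apart from control 3, which fell among the treated lungs, the groups did not overlap. Controls 21, 24 and 26 were above every bleomycin lung of either genotype, as for 15.3% of all genes tested. The log2 fold change was -1.95 (SE 0.39, adjusted p = 0.000842 by the quasi-likelihood test in edgeR, adjusted after Benjamini and Hochberg over all genes tested) and -2.24 without control 3. Tef stood at 168, 542, 562 and 559.7 CPM in the controls and at 127, 125, 151, 209 and 242 CPM in the WT bleomycin lungs. Controls 21, 24 and 26 agreed closely and lay far above all treated lungs. Its log2 fold change was -1.42 (SE 0.30, adjusted p = 0.00137 from the same edgeR test), or -1.70 without control 3. Hlf had the largest fall of the 10: 22.9, 84.1, 91.7 and 83.9 CPM in the controls against 9.51, 10.5, 13.9, 18.4 and 23.2 CPM after bleomycin. Only the overlap of control 3 with WT bleomycin replicate 7 kept the groups from separating. Its log2 fold change of -2.23 (SE 0.37, adjusted p = 0.000211 from the same edgeR test) reached -2.52 without control 3.

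Nfil3, their antagonist, moved the other way. It was at 11.5, 6.37, 5.32 and 10.6 CPM in the controls and at 20.5, 21.2, 21.9, 29.9 and 23.8 CPM in the WT bleomycin lungs. Every treated lung lay above every control, control 3 included, which happened in one direction or the other for 40.3% of all genes tested. On the log2 scale the difference was 1.47 (SE 0.22, adjusted p = 7.665e-05 from the same edgeR test) and 1.66 without control 3. Control 3 was the highest of the controls for Nfil3, though by less than 1 CPM over control 26.

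The Period genes encode the repressors that close the loop. Per2 gave the widest spread: 22.4, 187, 226 and 249 CPM in the controls, and 43.8, 33.0, 55.4, 85.3 and 103 CPM in the WT bleomycin lungs. Control 3 was below all treated lungs, and the other 3 controls were above them. The fitted log2 fold change was -1.42 (SE 0.49, adjusted p = 0.0279 from the same edgeR test), and -1.78 (adjusted p = 0.00039 from the same test) without control 3. Per2 lost its call in 9 of the 25 alternatives: DESeq2 on the 2 groups, both limma fits, and the fits without controls 21, 24 or 26 or without WT bleomycin 4, 2 or 5. Per3 was at 35.1, 166, 168 and 175 CPM in controls and at 34.7, 26.9, 44.4, 56.6 and 67.9 CPM after bleomycin, a log2 fold change of -1.57 (SE 0.38, adjusted p = 0.00379 from the same edgeR test), or -1.88 without control 3. Per1, which also responds quickly to glucocorticoids and to light, was the gene that did not pass. It was at 119.5, 385, 412 and 444 CPM in controls and at 153, 110.0, 211, 256 and 254 CPM after bleomycin. All controls but 3 exceeded all treated lungs, yet with control 3 the log2 fold change was -0.79 (SE 0.34, adjusted p = 0.0659 from the same edgeR test). Left without it, Per1 had -1.07 (SE 0.26, adjusted p = 0.00391 from the same edgeR test).

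The nuclear receptors behaved differently from each other. Nr1d2 followed the Period genes: 108, 251, 255 and 250.3 CPM in the controls and 111, 100.4, 99.4, 129 and 129.6 CPM in WT bleomycin lungs. Its log2 fold change was -0.93 (SE 0.20, adjusted p = 0.00177 from the same edgeR test), and -1.15 without control 3. Nr1d1 was the gene in which control 3 did not stand low, at 239, 232, 248 and 129 CPM in the controls. The treated lungs had 92.8, 103, 103, 89.3 and 80.7 CPM, all below every control, and control 26 was the low control. Its log2 fold change of -1.18 (SE 0.20, adjusted p = 0.000272 from the same edgeR test) barely moved without control 3 (-1.12). The 3' end of Nr1d1 overlaps that of Thra on the other strand, and the library kit is not stated to keep strand, so reads from that stretch cannot be assigned with certainty. Ciart (Chrono), a repressor of BMAL1 and CLOCK whose promoter held the 3 E-boxes printed above, was at 16.0, 50.0, 56.2 and 47.3 CPM in controls. After bleomycin it was at 14.5, 14.0, 15.2, 20.3 and 16.7 CPM, with a log2 fold change of -1.39 (SE 0.29, adjusted p = 0.00114 from the same edgeR test), or -1.66 without control 3. The means were 16.1 ± 2.53 CPM (SD, n = 5) after bleomycin and 42.4 ± 17.9 CPM (SD, n = 4) in the controls, whose SD came mostly from replicate 3.

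The genes that drive the loop were read against the same libraries, and the counts of called genes in these short lists stand against the 48.9% called over all genes. Of the 4 activators and partners, Clock and Arntl2 were called higher in WT bleomycin lungs and Arntl and Npas2 were not, and without control 3 all 4 were called higher. Arntl was at 26.9, 4.68, 5.38 and 3.14 CPM in the controls and at 14.2, 18.1, 13.6, 7.40 and 7.84 CPM in WT bleomycin lungs. Control 3 exceeded all treated lungs, while the other 3 controls lay below them. Accordingly the log2 fold change was 0.29 (SE 0.50, adjusted p = 0.661 by the quasi-likelihood test in edgeR) with control 3 and 1.48 (SE 0.30, adjusted p = 0.00134 from the same test) without it. Npas2, at 9.81, 1.32, 1.02 and 1.16 CPM in controls and 2.78 to 6.12 CPM after bleomycin, went from 0.49 to 2.00 on the log2 scale in the same way. Clock itself differed by 0.36 (SE 0.14, adjusted p = 0.0416 from the same test), and by 0.56 without control 3. Arntl2, a less abundant paralog of Arntl, was at 0.42 to 1.16 CPM in controls and 1.83 to 3.64 CPM after bleomycin, a log2 fold change of 1.72 that became 1.51 without control 3.

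All 4 of the other repressors were called, 3 lower and 1 higher, where 23.9% and 25% of all genes tested were. Cryptochromes, the partners of the Period proteins, fell: the log2 fold change was -0.80 for Cry1 (SE 0.29) and -1.06 for Cry2 (SE 0.22). Bhlhe41 (Dec2) fell by 0.73 on the log2 scale. Bhlhe40 (Dec1), a repressor that hypoxia induces, rose by 1.23 (SE 0.18, adjusted p = 5.864e-05 from the same edgeR test). Control 3 was the lowest control in all 4 of these genes, and without it the log2 fold changes were -1.07 for Cry1, -1.23 for Cry2, -0.97 for Bhlhe41 and 1.105 for Bhlhe40.

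**Figure D2:**
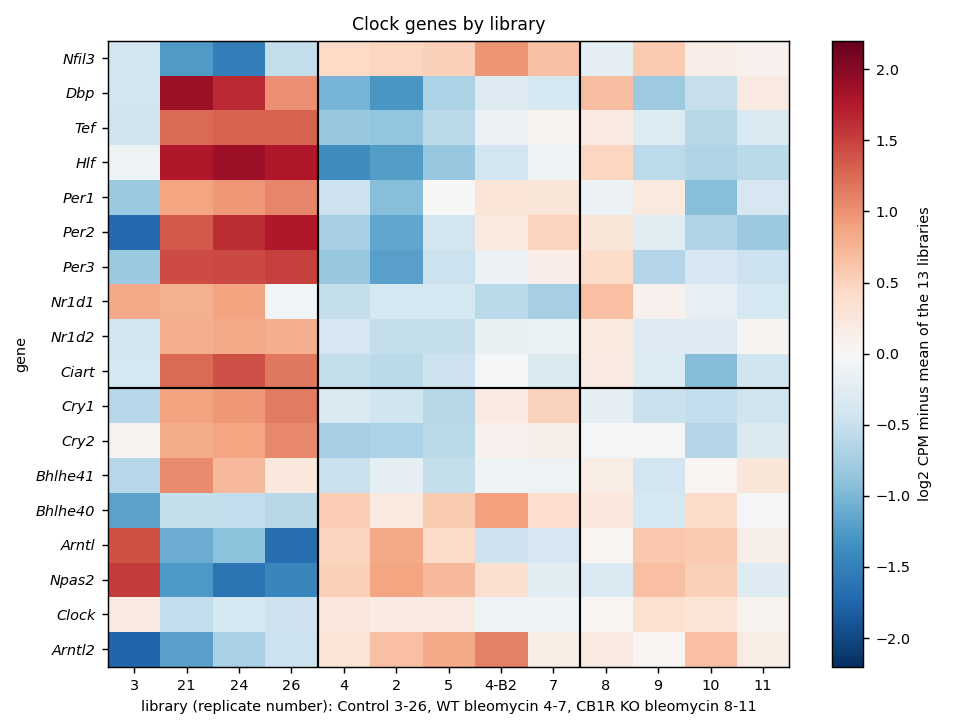
Colour gives the log2 CPM of each gene (rows) minus its mean over the 13 libraries (columns, ordered by group and separated by vertical lines), with the 10 clock output genes above the horizontal line. Controls 21, 24 and 26 are red for Dbp, Tef, Hlf and the Period genes and blue for Nfil3, Arntl and Npas2. Control 3 is the reverse for Arntl and Npas2, and its Period genes are blue.

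Further clock genes were read in the same comparison. Rora, a retinoid-related orphan receptor that activates through the REV-ERB site, was called lower, with a log2 fold change of -0.50 (-0.61 without control 3), while Rorb was too low to be tested. Csnk1e, a kinase that sets the stability of clock proteins, was called lower at -0.42 (-0.47 without control 3). Genes known to cycle in many mouse tissues split, with 1 of 6 higher (Dtx4, 1.12) and 2 lower (Usp2, a clock-driven deubiquitinase, at -1.33, and Tsc22d3 at -1.44). Among all genes tested, 25% were called higher and 23.9% lower. Without control 3 the count of lower genes in this list was 3, with Dtx4 at 1.36, Usp2 at -1.59 and Tsc22d3 at -1.72.

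Between CB1R KO and WT bleomycin lungs, log2 fold changes of the 10 clock genes ran from -0.44 to 0.70. None of the 10 was called by edgeR's quasi-likelihood test. The share called over all genes tested was 0.979%, and 2 of the 10, Nfil3 and Nr1d1, had an unadjusted p under 0.05. DESeq2 called 1 of the 10, Nr1d1, where it called 4.22% of all genes. The median log2 fold change of the 10 genes was 0.19, and that of all genes tested was 0.00.

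Nfil3 was at 13.2, 22.6, 16.8 and 16.3 CPM in CB1R KO replicates 8, 9, 10 and 11. Replicates 8, 10 and 11 were below every WT bleomycin lung and replicate 9 was among them. The log2 fold change was -0.44 (SE 0.21, adjusted p = 0.291 by the quasi-likelihood test in edgeR), and it lay between -0.60 and -0.28 over the 25 alternatives. Nr1d1 was at 213, 143, 118 and 103 CPM in the CB1R KO lungs. The lowest of them, replicate 11, was just above the highest WT bleomycin lung, so the groups did not overlap, as for 5.6% of all genes tested. Its log2 fold change was 0.62 (SE 0.20, adjusted p = 0.148 from the same edgeR test). Dbp was at 131, 47.1, 57.4 and 93.6 CPM, with a log2 fold change of 0.70 (SE 0.39, adjusted p = 0.377 from the same edgeR test). Dbp in replicates 8 and 11 exceeded every WT bleomycin lung and in replicates 9 and 10 did not. For the other 7 genes the log2 fold change ran from -0.15 for Per1 to 0.45 for Hlf, each with an SE between 0.20 and 0.50. A value that misses the threshold with an error of this size does not show that the genotypes are alike.

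CB1R KO replicate 8 gave the highest value in its group for 8 of the 10 genes, where 23.7% of all genes tested had it highest. Hlf showed it most clearly, at 34.3 CPM in replicate 8 and at 16.6, 15.7 and 16.3 CPM in replicates 9, 10 and 11. Tef was at 258, 185, 148 and 182 CPM, Per3 at 81.3, 39.4, 47.5 and 44.5 CPM, and Nr1d2 at 166, 119, 118 and 150.0 CPM in the same order. Per2 (88.6, 61.0, 46.0 and 41.7 CPM) and Ciart (24.1, 17.0, 10.7 and 15.5 CPM) followed the same lead. Nfil3 and Per1 were the exceptions, both highest in replicate 9, with Per1 at 193, 245, 109.8 and 164 CPM. Without replicate 8 the log2 fold change between genotypes turned from 0.20 to -0.07 for Per3 and from 0.05 to -0.16 for Ciart, neither of them called.

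CB1R KO bleomycin lungs were also set against control lungs, a comparison that changes genotype and treatment together and shares its controls with the first. Of the 10 genes, 8 were called, 1 higher and 7 lower, where 35.4% of all genes tested were called, 19% higher and 16.3% lower. Nfil3 was higher by 1.03 (SE 0.23, adjusted p = 0.00301 by the quasi-likelihood test in edgeR) and Hlf was again the furthest down, at -1.78 (SE 0.39). Without control 3 these became 1.22 and -2.07. Nr1d1 (-0.56, adjusted p = 0.0558) and Per1 (-0.93, adjusted p = 0.0559, both from the same edgeR test) were not called. Without control 3, 9 of 10 were called (32.7% of all genes), Nr1d1 being the exception. The count was less stable than in WT bleomycin lungs, and it fell to 5 without control 21 or 24 and to 4 without CB1R KO replicate 10 or 11.

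**Figure D3:**
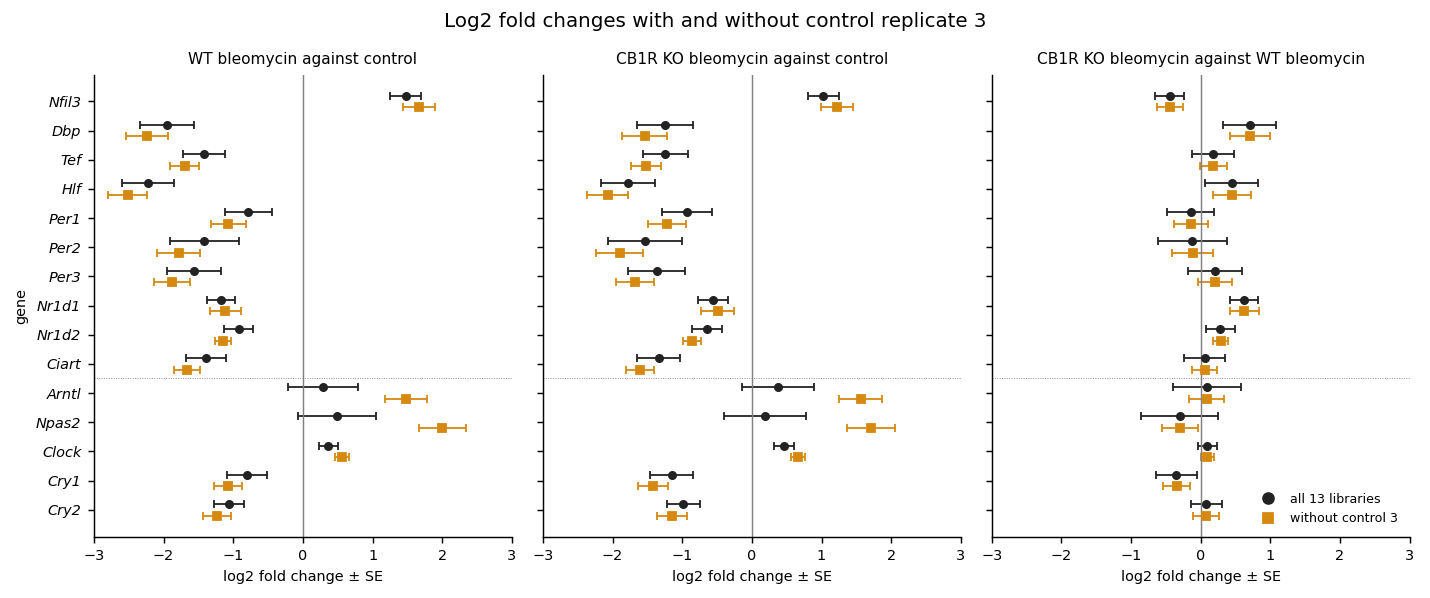
Points are log2 fold changes with standard errors from edgeR for each of the 3 comparisons, in all 13 libraries (black circles) and without control replicate 3 (orange squares), with the 10 clock output genes above the dotted line. Leaving out control 3 moves Dbp, Tef, Hlf and the Period genes further below 0 and Arntl and Npas2 from near 0 to between 1.48 and 2.00 in the WT bleomycin panel. In the panel between genotypes the points lie between -0.44 and 0.70.

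The clock genes also moved together between animals of the same group, but the share of all genes tested that did so was not computed. Each gene's log2 CPM was centred on its group, and Dbp was correlated over the 13 libraries with the other 9 genes, Arntl and Npas2, 11 relations in all, with exact permutation of libraries within groups. Nr1d2 followed Dbp most closely, with Pearson's r = 0.91 and Spearman's rho = 0.84 (two-sided exact permutation p = 0.0011 for r and 0.00143 for rho, adjusted p = 0.00477 and 0.00928). Then came Per3 (r = 0.90, rho = 0.80), Hlf (r = 0.89, rho = 0.82), Tef (r = 0.88, rho = 0.75), Ciart (r = 0.86, rho = 0.81) and Per2 (r = 0.81, rho = 0.64), each with an adjusted exact permutation p for r of at most 0.0181. Their rho had an adjusted exact permutation p of 0.00928 in every case but Per2, which had 0.0527. Per1 was weaker (r = 0.72, adjusted exact permutation p = 0.0457), and its rho of 0.41 did not pass (adjusted p = 0.256 from the same permutation). Npas2 (r = -0.88, rho = -0.79, adjusted exact permutation p = 0.00828 for r) and Arntl (r = -0.82, rho = -0.73, adjusted exact permutation p = 0.0117 for r) ran against Dbp. Nfil3 also ran against it without passing (r = -0.63, rho = -0.63, adjusted exact permutation p = 0.0973 for r and 0.104 for rho), and Nr1d1 did not pass (r = 0.10, rho = 0.21, adjusted exact permutation p = 0.80 for r and 0.569 for rho).

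The 2 libraries farthest from the median of Dbp were controls 3 and 21, and without them r was 0.84 for Nr1d2, 0.80 for Per3 and Hlf, 0.76 for Tef, 0.72 for Ciart, 0.62 for Per2, 0.47 for Per1, -0.63 for Arntl, -0.78 for Npas2, -0.415 for Nfil3 and 0.26 for Nr1d1. Leaving out control 3 alone, an alternative chosen after the data were seen, kept 4 relations past an adjusted exact permutation p of 0.05: Nr1d2 (r = 0.83), Per3 (0.76) and Hlf (0.75), each with an adjusted exact permutation p of 0.0316, and Tef (0.71, adjusted exact permutation p = 0.0479). The relations with Per1, Per2, Ciart and Arntl (r = 0.37, 0.53, 0.67 and -0.55) no longer passed without that library. Npas2 lost the call too (adjusted exact permutation p = 0.0727) at an r of -0.75, about as large as that of Hlf. Nfil3 (-0.43) and Nr1d1 (0.39) did not pass either. The permutation was not run over all genes tested, so no share of them stands beside the relations that passed. The 10 libraries with lower-case labels, likewise chosen after the data were seen, hold control 3 beside controls 21 and 24 only. Control 3 thus weighs more in them, and their values do not stand apart from that library. Within these 10, r was 0.95 for Nr1d2, 0.945 for Per3, 0.92 for Hlf and Tef, -0.94 for Arntl and Npas2 and -0.91 for Nfil3. Each had an adjusted exact permutation p of at most 0.040. Ciart (r = 0.88), Per2 (0.86) and Per1 (0.72) had adjusted exact permutation p-values of 0.078, 0.0821 and 0.139 there, and Nr1d1 (0.24) had 0.567. The 3 libraries with capitals are too few for a value of their own. WT bleomycin replicates 4-B2 and 7 were both above replicates 4, 2 and 5 for 9 of the 10 genes, all but Nr1d1, while 15.2% of all genes tested had this order. For Nr1d1 both were below, an order seen in 14.9% of genes. The style and the animals cannot be told apart within WT bleomycin lungs, and no CB1R KO label has capitals.

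The ratio of Dbp to Arntl, both in TPM, puts the opposite phases of the loop in 1 number. It was 110.5, 81.4 and 87.2 in controls 21, 24 and 26 and 3.82 in control 3. In WT bleomycin replicates 4, 2, 5, 4-B2 and 7 it was 4.83, 2.99, 6.28, 16.2 and 13.4, and in CB1R KO replicates 8, 9, 10 and 11 it was 21.2, 5.26, 6.49 and 14.3. The lowest of controls 21, 24 and 26 was thus well above the highest bleomycin lung, whereas control 3 was inside the WT bleomycin range. Both bleomycin groups spanned a similar range and overlapped throughout most of it.

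**Figure D4:**
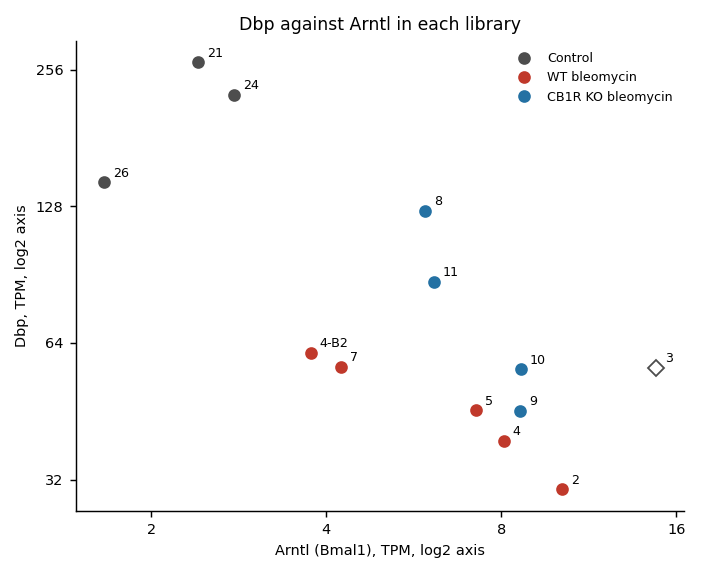
Dbp (vertical axis) is plotted against Arntl (horizontal axis), both in TPM on log2 axes, with 1 point per library labelled by its number and coloured by group. Controls 21, 24 and 26 sit at the upper left with 144 to 266 TPM of Dbp and 1.66 to 2.77 TPM of Arntl. Control 3, the open diamond, sits at the far right with 14.8 TPM of Arntl, and on that axis the bleomycin libraries lie between. On the Dbp axis control 3, at 56.5 TPM, lies among the bleomycin libraries.

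Outside the clock, the genes whose pattern over the 13 libraries was most like that of Nfil3 were Abtb2 (r = 0.95), Tmc5 (r = 0.95), Mdga1 (r = 0.95), Rhbdl2 (r = 0.94) and Ccr1, a chemokine receptor of myeloid cells (r = 0.94). All 5 were called higher in WT bleomycin lungs by the same edgeR test, with log2 fold changes of 0.84 to 2.49. Among all genes tested 25% were. These 5 were picked for a pattern like that of Nfil3, itself higher there, so their calls follow from the choice. For each, r was over 0.94 without control 3 as well. The points share their groups, so these values describe the pattern and carry no test. For Dbp, centred on the group, the nearest genes were Ngef (r = 0.91), Camk2n2 (0.90), Ankrd12 (0.89), Irak1bp1 (0.88) and Slc30a1 (0.88), and r was 0.83, 0.81, 0.74, 0.79 and 0.81 without control 3, where they ranked 12, 25, 69, 32 and 22. The 5 genes nearest to Nfil3 ranked 8, 7, 10, 14 and 15 without it, so both orders depend on that library.

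Markers of several cell types differed in the same comparisons, and in whole lung they do not separate cell number from RNA per cell. In WT bleomycin against control lungs, marker lists of macrophages (7 of 7 higher, summed level 1283 to 1479 CPM against 439 to 539 CPM) and fibroblasts (3 of 6 higher and 1 lower, 3774 to 5915 against 1300 to 1386 CPM) were higher, while those of club cells (6 of 6 lower), endothelial cells (7 of 7 lower), type II cells (5 of 6 lower), natural killer cells (6 of 6 lower) and cardiac and striated muscle (6 of 6 lower) were lower. Neutrophil markers were lower for 4 of the 5 tested, at 75.8 to 135 CPM in sum against 127 to 588 CPM, and B and plasma cell markers for 4 of 6, with 1 higher. The remaining lists had smaller counts: adipocytes 2 of 5 lower, ciliated cells 2 of 6 lower, type I cells 2 lower and 1 higher of 6, T cells 1 of 5 lower, and immediate early genes 2 lower and 1 higher of 8. Over all genes tested, 25% were called higher and 23.9% lower, so the smaller counts alone do not set these lists apart. Between CB1R KO and WT bleomycin lungs, type II cells (3 of 6), natural killer cells (2 of 6) and endothelial cells (1 of 7) had markers called higher, and no list had one called lower. The share of all genes tested that was called between genotypes, in either direction, was 0.979%. Larger median log2 fold changes between genotypes that were not called stood in cardiac and striated muscle (1.08, with 6 of 6 markers at an unadjusted p under 0.05) and adipocytes (1.44, with 4 of 5), against 0.48 for type II, 0.73 for natural killer and 0.18 for endothelial cells. No list had a marker at 0 throughout a group, and their part in the levels of the clock genes was not tested.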

How the data were processed

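Lung mRNA in 13 libraries was sequenced by the authors as paired-end reads and quantified with Kallisto on the Ensembl release 105 mouse reference (GRCm39 in the submitters' processing notes). The authors deposited estimated counts, which are not normalized and which were not whole (over 0.001 from a whole number) in 64.8% of values, and TPM, both added up per gene symbol from its protein-coding transcripts. In the TPM table, 1 column matching no sample was not used.

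Counts were rounded, filtered with filterByExpr and TMM-normalized, and 15315 genes were fitted in 3 groups in edgeR 4.0.16 under R 4.3.3 (quasi-likelihood test, Benjamini-Hochberg over all genes tested, threshold 0.05). CPM used TMM-scaled library sizes, and log2 CPM a prior count of 2. The procedure was tested on simulated data. In WT bleomycin against control, log2 fold changes had a median standard error of 0.114. The replicates were taken as separate mice from their labels, which for WT bleomycin 4 and 4-B2 is assumed, and no number was shared between groups. The 25 alternatives included DESeq2 1.42.0, limma 3.58.1 on log2 TPM, other normalizations and filters, label style and each library left out. Correlations, figures and promoter searches used Python 3.11.15 with numpy 2.4.6, pandas 2.3.3 and matplotlib 3.10.9.

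The members and the gene lists were chosen with earlier results of these data known. The genes named are the 10 members, Cnr1, the core activators and other repressors, for each further list the 2 called genes of lowest p that were higher and the 2 that were lower in WT bleomycin against control, and the 5 genes most like Nfil3 and Dbp. A few of the genes this names, and the counts of lists that hold them, are not reported here.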

Additional observations from a re-analysis of the deposited data

Results flagged for a closer look

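In the 10 clock output genes, the 30 groups of libraries were examined for a library whose gap to its nearest neighbour, as a share of the group's range on the log2 CPM scale, was above Dixon's 95% critical value. Chance flags about 1 in 20 groups, and 9 of the 30 were found. Of these, 7 were control replicate 3 as the lowest control: the share was 0.971 for Tef, 0.936 for Hlf, 0.891 for Per1, 0.881 for Per2, 0.966 for Per3, 0.979 for Nr1d2 and 0.863 for Ciart. These genes are known to move together, so the 7 are not independent. In Nr1d1 it was control replicate 26 that lay lowest, with a share of 0.899. CB1R KO bleomycin replicate 8 was the highest of its group in Hlf, with a share of 0.927.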

How the results depend on the processing

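In WT bleomycin against control lungs, 239 of 250 gene-by-setting values kept their direction and side of the threshold, 9 lost the call (all in Per2, under DESeq2 on the 2 groups, both limma fits and without controls 21, 24 or 26 or WT bleomycin 4, 2 or 5) and 2 gained it (Per1). In CB1R KO bleomycin against control, 204 of 250 kept both, 37 lost the call and 9 gained it, and the 8 members called became 5 with edgeR on 2 groups, 4 with limma on log2(TPM + 1) and on log2(TPM + 0.1), and 4 to 9 when each library was left out. Without control 3, the correlation with Dbp no longer passed for Per1, Per2, Ciart, Arntl and Npas2. The cause was not tested.

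Between CB1R KO and WT bleomycin lungs, 0 members called became 1 (Nr1d1) under DESeq2 on all libraries and 1 on 2 groups. The 150 genes called over the whole table became 643 and 642 under these, 88 with edgeR on 2 groups, 93 with limma on log2(TPM + 0.1), 41 with the label style as a batch term, 6 with only lower-case labels, and 1 (without CB1R KO 9) to 653 (without CB1R KO 10) when each library was left out. Log2 fold changes of uncalled members turned sign: Per1 to 0.15 and Per2 to 0.37 with the style term and to 0.17 and 0.42 with lower-case labels. When each library was left out, Per1 ranged from -0.34 to 0.028 (above 0 without CB1R KO 10), Per2 from -0.38 to 0.12 (above 0 without WT bleomycin 4-B2, WT bleomycin 7 or CB1R KO 11), Per3 from -0.072 to 0.39 and Ciart from -0.16 to 0.21 (both below 0 without CB1R KO 8). No paired analysis was possible because the groups compared share no replicate number.

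Replicates number 4 or 5 a group, collection time is not given, and estimated counts carry no counting interval here.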

Other observations

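Glucocorticoid-induced genes, which the adrenal rhythm and stress are known to drive, varied between libraries in an order that matched that of the clock output genes in part. Of 12 such genes, 10 were lowest in control replicate 3 among the controls and 11 were highest in control replicate 26, where 29.9% and 25.6% of all genes tested had these orders. Control 3 was also the lowest control for 8 of the 10 clock output genes, whereas control 26 was the highest for 3. WT bleomycin 4-B2 and 7 were both above 4, 2 and 5 for 7 of the 12 and for 9 of the 10 clock output genes, against 15.2% of all genes. Zbtb16, chosen after its values were seen, was at 23.4, 76.8, 113 and 185 CPM in controls 3, 21, 24 and 26. CB1R KO replicate 9 was the highest of its group for 9 of the 12, compared with 22.4% of all genes, although replicate 8 was the highest for 8 of the 10 clock output genes. In WT bleomycin against control lungs 3 of the 12 were called higher by edgeR's quasi-likelihood test and 4 lower, where 25% and 23.9% of all genes tested were, and without control 3 the counts were 2 and 4. Among them were Mt2, a metal-binding stress protein (log2 fold change 2.99, SE 0.43, or 2.73 without control 3), the kinase Sgk1 (0.37, SE 0.08), Klf9 (-1.13, SE 0.25) and Tsc22d3 (-1.44, SE 0.35). Between CB1R KO and WT bleomycin lungs none of the 12 was called, 1 of them with an unadjusted p under 0.05.

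Lymphoid factors and receptors linked to Nfil3 were called in both directions. Of 7 tested, 1 was called higher in WT bleomycin lungs (Id2, log2 fold change 0.42, SE 0.08) and 3 lower (25% and 23.9% of all genes tested), among them the natural killer cell receptor Ncr1 (-1.89, SE 0.26) and Eomes (-1.25, SE 0.21). Ncr1 was at 5.73 to 9.99 CPM in Control, 1.5 to 3.27 CPM in WT bleomycin and 2.80 to 4.32 CPM in CB1R KO bleomycin lungs. Natural killer cell markers, of which Ncr1 is one, summed to 62.8 to 80.3 CPM in Control, 18.9 to 26.9 CPM in WT bleomycin and 31.2 to 41.1 CPM in CB1R KO bleomycin lungs.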
